A study of Mus musculus with 4 samples.

Results

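Polycomb repressive complexes are the chromatin machines that keep developmental genes silent. The 10 genes described here, Ezh2, Eed, Suz12, Jarid2, Mtf2, Rbbp4, Ring1, Rnf2, Pcgf6 and Cbx7, were chosen by symbol as subunits of these complexes, and all 10 were found among the 25170 genes of the deposited table. Ribosome footprints, the short RNA pieces that ribosomes shield from nuclease, had been sequenced from E14 mouse embryonic stem cells, a wild-type line that the labels trace to the inner cell mass. The cells were grown on gelatin in serum with leukemia inhibitory factor, and were kept for 3 passages in 1 µM PD (2 libraries) or in the solvent DMSO (2 libraries), in a study of the kinase Mek. PD is the labels' own name for the compound, and nothing says whether the 2 libraries of a group came from separate cultures, so each spread and p-value describes these libraries and may be technical. No matched RNA library was used here, so a footprint level follows both the amount of an mRNA and the density of ribosomes on it.

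Polycomb group proteins act in 2 main assemblies. Polycomb repressive complex 2 (PRC2) methylates a lysine of histone H3 through Ezh2, which works only when bound to Eed and Suz12 and which is joined by the histone-binding protein Rbbp4. Jarid2 and Mtf2 are accessory subunits of alternative PRC2 forms that help the complex find its sites: Jarid2 recognizes ubiquitinated histone H2A, and Mtf2 binds DNA rich in unmethylated CpG. Polycomb repressive complex 1 (PRC1) adds ubiquitin to histone H2A through the RING proteins Rnf2 and Ring1. Its forms are told apart by a PCGF protein, such as Pcgf6, and some forms carry a CBX protein, such as Cbx7, that reads the mark PRC2 leaves. In embryonic stem cells these marks cover promoters of silent developmental regulators, and inhibition of Mek is one way in which such cells are held in the naive state.

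PD libraries were shallower than DMSO libraries. Relative to DMSO replicate 1, depth as read from the steps of the FPKM values was 0.464 in PD replicate 1 and 0.201 in PD replicate 2. It was 1.42 in DMSO replicate 2, so treatment and depth cannot be told apart in these libraries. Across 8897 protein-coding genes, the PD libraries correlated with each other at r = 0.9071, and the DMSO libraries at 0.9493. With DMSO replicates 1 and 2, PD replicate 1 correlated at 0.9382 and 0.9335, and PD replicate 2 at 0.8946 and 0.9171. Each PD library was thus closer to DMSO replicate 2 than to the other PD library. FPKM counts fragments scaled by transcript length and library size, and levels of different genes are set side by side on that scale. It does not separate the density of ribosomes from the share of a transcript that is translated. Orders, ratios and shares between genes below hold on this scale only. Pluripotency markers were present in every library. Over 9 genes they summed to 821 and 651 FPKM in the PD libraries, against 879 and 617 FPKM in the DMSO libraries. Nanog (136 and 116 FPKM in PD, 70.0 and 57.1 FPKM in DMSO) was higher in both PD libraries. So was Zfp42 (67.6 and 79.8 FPKM in PD, 52.8 and 58.4 FPKM in DMSO). Sox2 was lower (36.0 and 34.6 FPKM in PD, 45.5 and 44.7 FPKM in DMSO), and the other 6 overlapped between the groups. The 9 fibroblast and feeder markers summed to 290 and 273 FPKM in the PD libraries and to 196 and 136 FPKM in the DMSO libraries. Nearly all of that came from Fn1 and Vim, which stem cells can also express. Both PD libraries were above both DMSO libraries for Vim (207 and 185 FPKM in PD, 105 and 29.7 FPKM in DMSO), for Thy1 (1.82 and 2.10 FPKM in PD, 1.13 and 1.49 FPKM in DMSO) and for Pdgfrb (0.715 and 1.24 FPKM in PD, 0.249 and 0.381 FPKM in DMSO), and below them for Fn1. The collagen genes Col1a1, Col1a2 and Col3a1 stood at 1.12 FPKM or less in every library, and S100a4 was listed at 0 throughout. The 6 primitive endoderm markers summed to 1.34 and 0.685 FPKM in PD and to 0.651 and 0.468 FPKM in DMSO. Among them Sox7 was higher in both PD libraries, at 0.456 and 0.350 FPKM against 0.211 and 0.0995 FPKM in DMSO, and Gata6 was listed at 0 throughout. The 7 trophectoderm markers summed to 8.90 and 16.4 FPKM in PD and to 14.04 and 22.9 FPKM in DMSO, mostly from Krt18, Tfap2c and Krt19, and Cdx2 was listed at 0 throughout. Krt19 had 2.60 and 0.909 FPKM in PD, against 5.12 and 5.56 FPKM in DMSO, and Eomes and Elf5 were listed at 0 in both PD libraries only. The test below covered all 9 pluripotency markers, 4 fibroblast and feeder markers, 4 trophectoderm markers and 0 primitive endoderm markers. None of these passed (limma), and 3 of them, Nanog, Vim and Krt19, had an unadjusted p under 0.05. Over all 9741 genes tested, 561 had an unadjusted p under 0.05. The part of other cells in the results below was not tested.

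Each gene was tested in limma on log2(FPKM + 1), over the 9741 genes that averaged 1 FPKM or more, and all 10 Polycomb genes were among these. None of the 10 passed an adjusted p of 0.05 (limma), none had an unadjusted p under 0.05, and none passed with voom on recovered reads, which covered 6 of them. Of all 9741 genes tested, 0.257% passed and 561 had an unadjusted p under 0.05 (limma). Among the 8897 protein-coding genes fitted alone, 0 passed (limma) and 609 had an unadjusted p under 0.05. No gene passed without DMSO replicate 1 or without DMSO replicate 2 (limma, 344 and 416 genes at an unadjusted p under 0.05), or with voom (414). The members' adjusted p-values ran from 0.837 for Jarid2 to 0.995 for Ezh2 (limma). The median log2 difference between PD and DMSO was -0.06 over the 10 genes and -0.02 over all genes tested. Both PD libraries lay above both DMSO libraries for 2 members, Rnf2 and Ring1, and below them for Jarid2 and Mtf2. Libraries of the groups thus did not overlap for 4 of 10 members, while 35.8% of all genes tested had no overlap (17.5% with PD above and 18.3% with PD below).

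**Figure D1:**
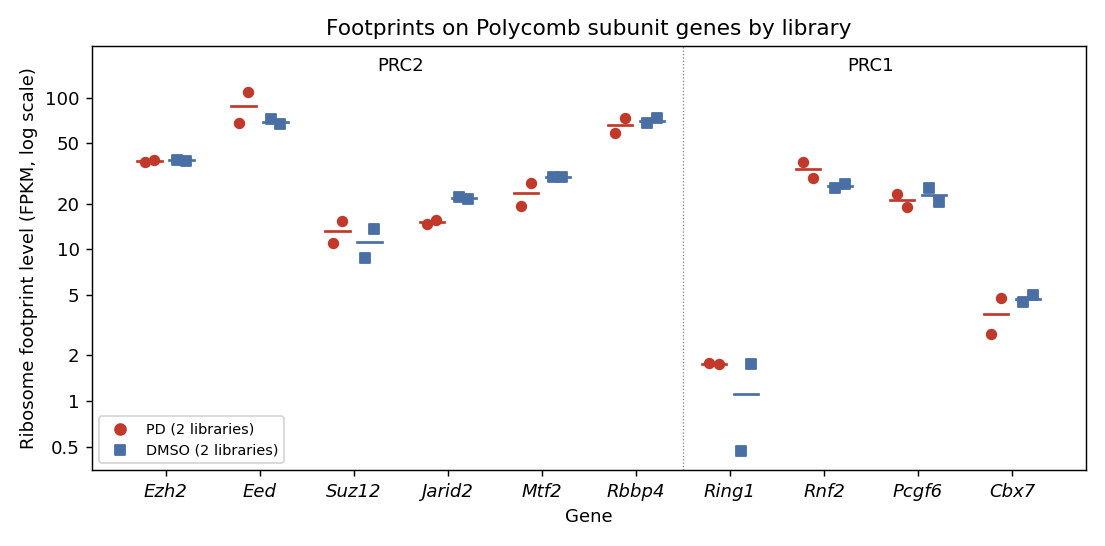
Footprint level in FPKM on a log scale (y axis) for each of the 10 Polycomb genes (x axis). Each point is 1 library, with PD libraries as circles to the left and DMSO libraries as squares to the right, and each line is the mean of 2 libraries. Ezh2 sits between 37.8 and 38.9 FPKM in all 4 libraries, while Jarid2 is at 14.7 and 15.6 FPKM in PD and at 22.2 and 21.4 FPKM in DMSO.

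The 3 core subunits of PRC2 were covered at unequal levels. Ezh2, the methyltransferase (mm10, chromosome 6, 47530274 to 47595030), had 37.8 and 38.7 FPKM in the PD libraries, against 38.9 and 38.6 FPKM in the DMSO libraries. Relative to their mean, these 4 values lay closer together than those of any other member. Its log2 difference was -0.02, with a 95% interval from -0.64 to 0.61 (limma), which is the range of change that this test leaves possible. Eed, which binds the methylated lysine and stimulates the enzyme (chromosome 7, 89954654 to 89980976), had 68.7 and 109 FPKM in the PD libraries and 72.2 and 67.5 FPKM in the DMSO libraries. PD replicate 2 stood apart from the other 3 libraries of this gene. That value rested on 188 recovered reads, the smallest whole number that explains the steps of the table, with a 95% Poisson interval of 93.6 to 125 FPKM for counting error only. The interval of PD replicate 1, from 274 reads, was 60.8 to 77.3 FPKM and did not reach it. Eed differed by 0.30 on the log2 scale (SE 0.32, limma adjusted p = 0.882), and it was -0.02 without PD replicate 2. Suz12, the subunit that holds the core together (chromosome 11, 79993106 to 80034123), had 11.0 and 15.4 FPKM in the PD libraries and 8.79 and 13.7 FPKM in the DMSO libraries. Its replicates differed by more than its groups did, at 13.2 ± 3.12 FPKM in PD and 11.2 ± 3.45 FPKM in DMSO (SD, n = 2 each), with a log2 difference of 0.23 (limma adjusted p = 0.925).

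Suz12 was thus the least covered of the core subunits in every library. Per length, Eed exceeded Suz12 by 6.24 and 7.03 times in the PD libraries and by 8.21 and 4.93 times in the DMSO libraries. Ezh2 exceeded Suz12 by 3.43 and 2.51 times in the PD libraries, against 4.42 and 2.82 times in the DMSO libraries. Both ratios overlapped between the groups. Rbbp4, a WD40 protein that PRC2 shares with histone deacetylase complexes (chromosome 4, 129287621 to 129335370), had 58.3 and 74.0 FPKM in PD and 68.4 and 73.3 FPKM in DMSO, and its log2 difference was -0.11 (limma adjusted p = 0.955). Its deposited span also covers Sync, a neighbouring gene, so its reads may not all be its own.

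The accessory subunits Jarid2 and Mtf2 were the 2 PRC2 members with both PD libraries below both DMSO libraries. Jarid2 (chromosome 13, 44730774 to 44921643) had 14.7 and 15.6 FPKM in the PD libraries, against 22.2 and 21.4 FPKM in the DMSO libraries. The group means were further apart than the libraries within either group, at 15.1 ± 0.60 FPKM in PD and 21.8 ± 0.561 FPKM in DMSO (SD, n = 2 each), a ratio of 0.694. The log2 difference was -0.50 with an SE of 0.24 and a 95% interval from -1.14 to 0.14, and it did not pass (limma adjusted p = 0.837). Set against Ezh2 in the same library, a ratio chosen after the values were seen and one that no scaling of a library alters, Jarid2 stood at 0.389 and 0.402 in PD and at 0.571 and 0.555 in DMSO. Mtf2 (chromosome 5, 108065674 to 108109219) had 19.5 and 27.5 FPKM in the PD libraries and 29.97 and 29.95 FPKM in the DMSO libraries. PD replicate 2 lay close to the DMSO values and PD replicate 1 well below them, and PD minus DMSO came to -0.36 on the log2 scale (SE 0.28, limma adjusted p = 0.853). It was -0.12 without PD replicate 1 and -0.60 without PD replicate 2. Mtf2 was above Jarid2 in every library, by 1.33 and 1.77 times in PD and by 1.35 and 1.40 times in DMSO.

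**Figure D2:**
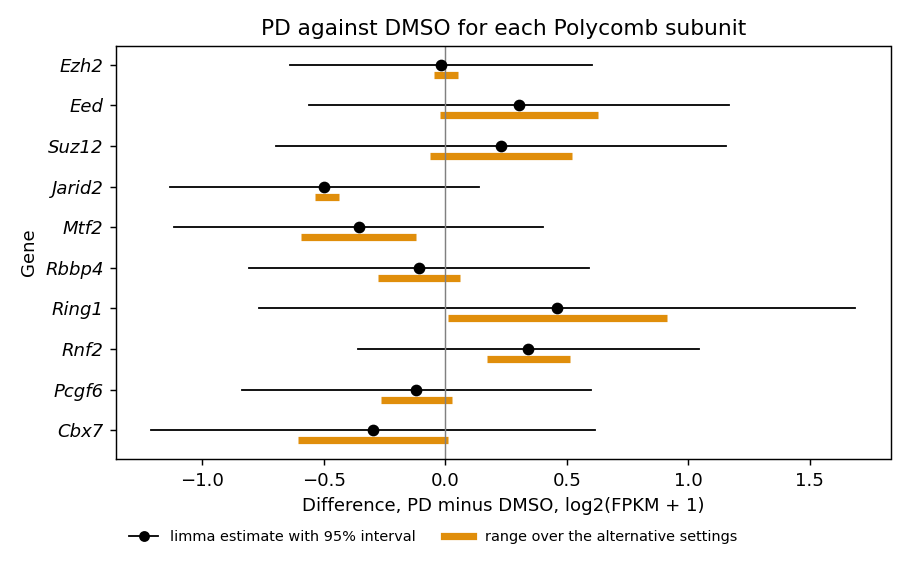
Difference between PD and DMSO in log2(FPKM + 1) (x axis) for each of the 10 Polycomb genes (y axis). Points and thin lines give the limma estimate with its 95% interval, and thick bars give the range over the alternative settings. Every interval includes 0, and the bars of Jarid2 (-0.54 to -0.44), Mtf2, Ring1 and Rnf2 stay on one side of 0.

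Promoters of the Polycomb genes were looked up in RefSeq (GRCm38.p6), as 300 bases from 250 before to 50 after a transcription start. Footprints measure nothing at a promoter, and the sequences are given as a property of the genes. All 10 genes had an entry, with 12 starts in all, since Jarid2 and Mtf2 have 2 each. A ratio of observed to expected CpG of at least 0.6 was found in 11 of these 12 windows, against 47.7% of 21263 windows of protein-coding genes. Suz12 had the most CpG, with 41, and the median over protein-coding genes was 13. The ETS-type motif CCGGAAG, of a factor family that acts below the Mek pathway, was searched on both strands and lay in 0 of the 12 windows, against 11.6% of all. The 3 windows below belong to the PRC2 accessory subunits Jarid2 and Mtf2, whose PD libraries lay below the DMSO libraries. They are written 5′ to 3′ on the gene's strand, the plus strand for both, with each CpG in capitals. The first Jarid2 window (chr13:44730524-44730823) holds 24 CpG. The first Mtf2 window (chr5:108065424-108065723) holds 30, and the second Mtf2 window (chr5:108077915-108078214), at a start inside the gene, holds 2 and is the exception among the 12.
Jarid2, first start: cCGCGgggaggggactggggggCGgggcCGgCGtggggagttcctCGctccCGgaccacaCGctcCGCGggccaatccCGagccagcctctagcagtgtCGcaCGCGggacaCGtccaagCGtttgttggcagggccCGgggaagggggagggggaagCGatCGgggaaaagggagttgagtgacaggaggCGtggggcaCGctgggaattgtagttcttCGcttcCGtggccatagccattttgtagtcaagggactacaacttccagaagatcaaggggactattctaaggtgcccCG
Mtf2, first start: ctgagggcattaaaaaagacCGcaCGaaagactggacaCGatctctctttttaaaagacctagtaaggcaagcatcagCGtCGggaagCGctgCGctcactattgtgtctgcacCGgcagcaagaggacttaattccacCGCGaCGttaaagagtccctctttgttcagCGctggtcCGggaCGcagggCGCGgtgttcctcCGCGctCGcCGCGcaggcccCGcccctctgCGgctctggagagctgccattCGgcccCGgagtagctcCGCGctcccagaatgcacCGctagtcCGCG
Mtf2, second start: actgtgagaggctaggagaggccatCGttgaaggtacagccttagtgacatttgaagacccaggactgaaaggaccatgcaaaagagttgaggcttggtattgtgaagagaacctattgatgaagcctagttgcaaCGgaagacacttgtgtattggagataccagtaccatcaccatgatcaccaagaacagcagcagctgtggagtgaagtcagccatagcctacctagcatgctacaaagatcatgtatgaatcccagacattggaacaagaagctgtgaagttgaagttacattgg

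Of the PRC1 members, the catalytic subunits Rnf2 and Ring1 both had PD libraries above DMSO libraries, on very different footing. Rnf2, also called Ring1B (chromosome 1, 151469398 to 151500991), had 37.9 and 29.7 FPKM in the PD libraries, against 25.3 and 27.2 FPKM in the DMSO libraries. The lower PD library was near the higher DMSO library, and the groups averaged 33.8 ± 5.80 and 26.2 ± 1.39 FPKM in PD and DMSO (SD, n = 2 each). The log2 difference was 0.34 with an SE of 0.26 and an interval from -0.36 to 1.05 (limma adjusted p = 0.844). It was 0.17 without PD replicate 1 and 0.51 without PD replicate 2. Recovered reads numbered 327 in the PD libraries together and 887 in the DMSO libraries together, which is 1.34 times more per unit of depth in PD, with an exact binomial 95% interval of 1.18 to 1.52 for counting error only. With the libraries pooled, the difference of Rnf2 was thus larger than counting error, but it did not pass the test over libraries. Pooling leaves out the variation between libraries. How many of all genes have a pooled ratio clear of 1 was not worked out, so this is not particular to Rnf2. Of the PD reads, 244 came from PD replicate 1. The counting interval of PD replicate 2 was 23.6 to 36.8 FPKM, which covered both DMSO values. Pooled the same way, the ratio was clear of 1 for Eed (1.045 to 1.293) and Rbbp4 (0.792 to 0.986), whose groups overlapped. For Ring1, Pcgf6 and Cbx7 the interval included 1. Ring1, also called Ring1A (chromosome 17, 34020792 to 34024680), was barely covered, with 1.78 and 1.76 FPKM in PD and 0.472 and 1.75 FPKM in DMSO. It rested on 7 and 3 recovered reads in PD and on 4 and 21 in DMSO, and 3 of the 4 libraries were nearly level. Its log2 difference was 0.46 (limma adjusted p = 0.870), and 0.01 without DMSO replicate 1.

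Rnf2 exceeded its paralog Ring1 in every library. The ratio was 21.3 and 16.9 in the PD libraries and 53.6 and 15.6 in the DMSO libraries, the highest being DMSO replicate 1, where Ring1 had 4 reads. Ezh2 exceeded its paralog Ezh1, a weaker methyltransferase, by 13.6 and 24.1 times in the PD libraries, against 15.3 and 7.40 times in the DMSO libraries. Rbbp4 stood the other way to its paralog Rbbp7, at 0.379 and 0.498 of its level in PD and at 0.507 and 0.479 in DMSO. The long deposited span of Rbbp7 (chromosome X, 162407200 to 163352564) was not checked for neighbouring genes, so its reads may not all be its own. None of these 3 ratios differed between the groups in a two-sided exact permutation test over libraries (p = 1, p = 0.667 and p = 0.667, and 1 for each after Benjamini-Hochberg over the 3). A design of 2 against 2 cannot give a p below 0.333.

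Pcgf6, the PCGF subunit of a variant PRC1 that also holds Mga, Max and L3mbtl2 (chromosome 19, 47033617 to 47050906), had 23.1 and 19.2 FPKM in the PD libraries and 25.5 and 20.6 FPKM in the DMSO libraries. The groups overlapped, with a log2 difference of -0.12 (limma adjusted p = 0.949). It was the leading PCGF gene in every library, with 80.7% and 66.4% of the family's summed FPKM in PD and 78.9% and 75.1% in DMSO. Pcgf2 came next in every library, at 4.34 and 7.05 FPKM in PD and at 3.93 and 3.41 FPKM in DMSO. Pcgf3 averaged 1.35 ± 0.235 FPKM in PD and 0.924 ± 0.527 FPKM in DMSO (SD, n = 2 each). Bmi1 stood at 0 and 0.949 FPKM in PD and at 0.0637 and 0.0450 FPKM in DMSO, and Pcgf5 was at 0.27 FPKM or less in every library. Pcgf1 belongs to the variant PRC1 that Kdm2b brings to CpG islands. Its value was 0 in PD replicates 1 and 2, against 2.25 and 1.81 FPKM in the DMSO libraries. The DMSO values rested on 7 and 8 recovered reads. At that rate the PD libraries together would hold 4.13 reads. With reads pooled as for Rnf2, the counting interval of the PD to DMSO ratio ran from 0 to 1.013. That interval only just included 1, and it rests on the smallest read numbers that explain the steps. Whether counting error alone gave the 0 in PD was not tested. The fitted log2 difference of -1.60 did not pass (limma adjusted p = 0.766). With a mean of 1.02 FPKM over the libraries, Pcgf1 reached the filter of 1 FPKM through DMSO alone.

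Cbx7, the CBX protein that marks canonical PRC1 of undifferentiated stem cells (chromosome 15, 79915807 to 79932646), had 2.77 and 4.78 FPKM in PD and 4.50 and 4.99 FPKM in DMSO. PD replicate 1 was the low library, and the values rested on 4 and 3 recovered reads in PD and on 14 and 22 in DMSO. Its deposited span overlaps the neighbouring gene Apobec3, so these reads may not all be its own. The log2 difference of Cbx7 was -0.30 (limma adjusted p = 0.891), and 0.01 without PD replicate 1. Of the summed FPKM of Cbx7, Cbx2, Cbx6 and Cbx8, Cbx7 took the largest share in every library, at 29.7% and 94.1% in PD and 48.0% and 53.9% in DMSO. In PD replicate 2, where that share was highest, Cbx6 and Cbx8 were listed at 0. Cbx2 had 2.62 and 0.302 FPKM in PD and 2.01 and 1.42 FPKM in DMSO. Cbx6 had 1.58 and 0 FPKM in PD and 2.69 and 2.34 FPKM in DMSO. Its log2 difference of -1.13 did not pass (limma adjusted p = 0.837). Its mean was 0.788 FPKM in PD and 2.51 FPKM in DMSO, so it reached the filter through DMSO. Cbx8 had 2.35 and 0 FPKM in PD and 0.181 and 0.512 FPKM in DMSO.

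**Figure D3:**
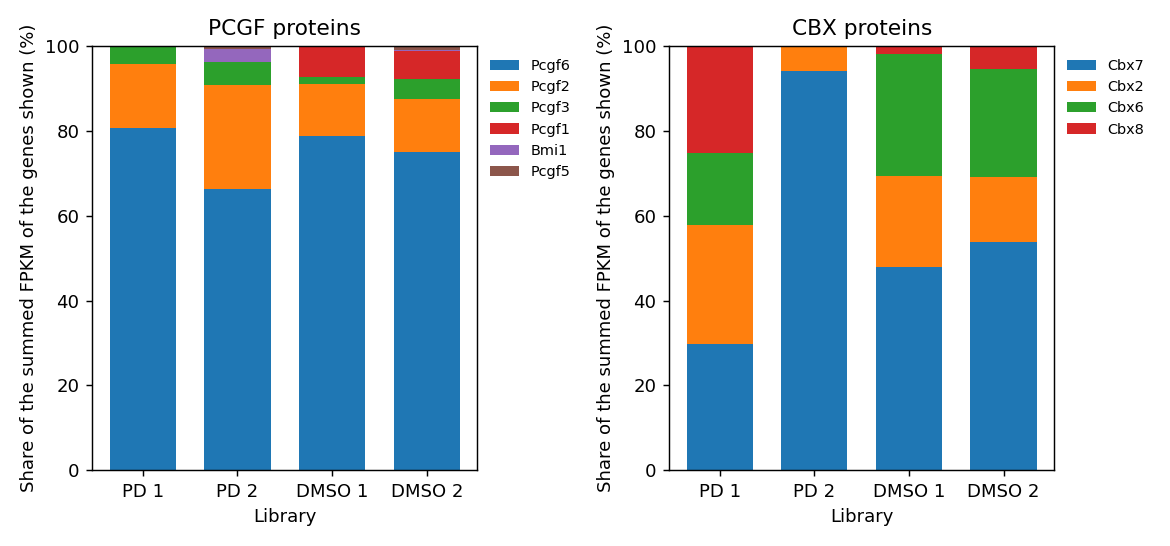
Share of the summed FPKM of the PCGF genes (left) and of Cbx7, Cbx2, Cbx6 and Cbx8 (right), in percent (y axis), for each library (x axis), with PD libraries left of DMSO libraries. Pcgf6 holds between 66.4% and 80.7% of the PCGF sum, whereas the share of Cbx7 on the right runs from 29.7% to 94.1%.

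In order of level, the 10 genes ran alike in both groups from a well-covered top to a thin end. In PD the order was Eed, Rbbp4, Ezh2, Rnf2, Mtf2, Pcgf6, Jarid2, Suz12, Cbx7 and Ring1. In DMSO it was Rbbp4, Eed, Ezh2, Mtf2, Rnf2, Pcgf6, Jarid2, Suz12, Cbx7 and Ring1. Libraries of neighbours overlapped in PD for Eed and Rbbp4, Ezh2 and Rnf2, Mtf2 and Pcgf6, and Jarid2 and Suz12. They overlapped in DMSO for Rbbp4 and Eed, Rnf2 and Pcgf6, and Pcgf6 and Jarid2, so those places are not settled. Other places rest on the library values alone. The deposited bounds of Mtf2 and Rnf2, for example, overlapped in DMSO replicate 1 (16.8 to 43.1 and 13.8 to 36.7 FPKM). Among 8897 protein-coding genes tested, Eed lay at the 92.2nd and 95.6th percentile in PD and at the 92.4th and 92.8th in DMSO, and Ring1 at the 17.2nd and 17.1st in PD and at the 1.99th and 14.7th in DMSO. The 6 PRC2 members summed to 210 and 280 FPKM in PD and to 240 and 244 FPKM in DMSO, and the 4 PRC1 members to 65.5 and 55.4 FPKM in PD and to 55.7 and 54.6 FPKM in DMSO. The higher PRC2 sum of PD replicate 2 was in large part that of Eed. The deposited confidence bounds were wide, and for none of the 10 genes was the interval of any PD library clear of that of any DMSO library. For Jarid2 they ran from 8.10 to 21.3 and from 8.56 to 22.6 FPKM in the PD libraries, against 12.4 to 32.0 and 11.9 to 30.9 FPKM in the DMSO libraries.

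Beyond the 10 subunits, 52 other Polycomb genes were listed, of which 34 were tested and 18 were under the filter. None passed (limma, smallest adjusted p = 0.766), and 1, Pcgf1, had an unadjusted p under 0.05, against 561 of all 9741 genes tested. Pcgf1, listed at 0 in both PD libraries, averaged 1.02 FPKM and reached the filter through its DMSO values alone. Both PD libraries were above both DMSO libraries for 6 of the 34 and below them for 8, that is 14 without overlap against 35.8% of all genes tested, and their median log2 difference was -0.01. Of the other PRC2 subunits, Epop, which joins Mtf2-containing PRC2 with elongin, had both PD libraries below, with 5.91 and 5.54 FPKM in PD and 14.5 and 6.45 FPKM in DMSO (log2 difference -0.68). Its DMSO replicates were further apart than PD was from DMSO replicate 2.

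The partners of variant PRC1 went both ways. Skp1a, an adaptor that Kdm2b binds, had 107 and 95.1 FPKM in PD, against 207 and 144 FPKM in DMSO (limma adjusted p = 0.837). Max had 11.9 and 1.62 FPKM in PD and 12.1 and 12.5 FPKM in DMSO, and Bcor, a scaffold of the Pcgf1 complex, had 4.25 and 0.808 FPKM in PD and 5.49 and 4.34 FPKM in DMSO. In both genes only PD replicate 2, the shallowest library, lay far from DMSO. The 3 tested partners with both PD libraries above DMSO were Wdr5, Hdac2 and E2f6, which are named after their values were seen. Wdr5, a scaffold that variant PRC1 shares with methyltransferase complexes, had 74.8 and 83.0 FPKM in PD, against 49.2 and 54.3 FPKM in DMSO. The deacetylase Hdac2 had 106 and 94.6 FPKM in PD and 67.2 and 64.9 FPKM in DMSO. Their log2 differences were 0.60 and 0.59, each with an adjusted p of 0.837 (limma). Another 5 partners were under the filter and are named after their values were seen. Rybp and Yaf2, interchangeable subunits of variant PRC1, had no footprints listed in PD and from 0.0731 to 0.373 FPKM in DMSO. At such levels a 0 in the shallower PD libraries cannot be told from low depth. Auts2 was also lower in both PD libraries, and Csnk2a1 overlapped. Bcorl1 was higher, at 1.18 and 0.906 FPKM in PD and 0.657 and 0.541 FPKM in DMSO.

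Enzymes that remove the Polycomb marks were covered at low to middling levels. Kdm6a, an X-linked demethylase of the PRC2 mark, had 7.42 and 8.82 FPKM in PD and 5.22 and 5.98 FPKM in DMSO (log2 difference 0.47, limma adjusted p = 0.837). Bap1, the ubiquitin hydrolase that reverses the PRC1 mark, had 4.22 and 4.02 FPKM in PD and 5.26 and 6.19 FPKM in DMSO. Hcfc1, a cofactor bound to Bap1, had 16.7 and 9.06 FPKM in PD, against 24.7 and 18.5 FPKM in DMSO. None of the 3 passed.

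**Figure D4:**
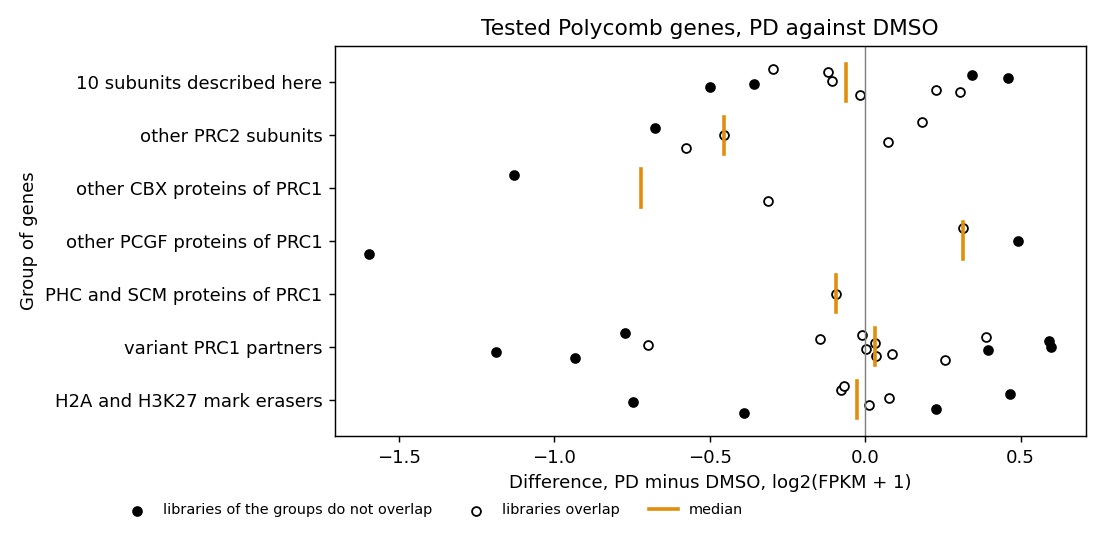
Difference between PD and DMSO in log2(FPKM + 1) (x axis) for each tested Polycomb gene, by group of genes (y axis). Filled points are genes whose PD and DMSO libraries do not overlap, open points are genes whose libraries overlap, and vertical bars are medians. The 10 subunits lie between -0.50 and 0.46. The lowest point is Pcgf1 at -1.60, which was listed at 0 in both PD libraries and reached the filter through DMSO alone.

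Developmental genes that Polycomb silences in stem cells were near the floor of the data in both groups. Of 43 such genes, 41 averaged under 1 FPKM and 15 were listed at 0 in all libraries, among them Hoxa2, Hoxa9, Pax3 and Olig2. Genes above 0 numbered 10 and 6 in the PD libraries and 19 and 18 in the DMSO libraries, which were deeper. Cdkn2a and Pax6 were the 2 that averaged 1 FPKM or more, and Pax6 averaged only 1.72 FPKM. Cdkn2a, which encodes cell cycle inhibitors and is a known Polycomb target, had 36.6 and 29.5 FPKM in PD and 27.02 and 26.53 FPKM in DMSO. Both PD libraries were above both DMSO libraries, but the log2 difference of 0.29 did not pass (limma adjusted p = 0.861). Pax6, a regulator of eye and brain development, had 0.142 and 2.61 FPKM in PD and 2.78 and 1.35 FPKM in DMSO. Cdkn2b, another cell cycle inhibitor gene, had 1.95 and 0 FPKM in PD and 0.544 and 1.28 FPKM in DMSO. The deposited spans of Pax6 (chromosome 2, 105536080 to 105904564) and Cdkn2b (chromosome 4, 89295180 to 89518621) were not checked for neighbouring genes.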

How the data were processed

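The 4 libraries were grouped by their labels. Per the file headers, the authors deposited FPKM per gene with lower and upper confidence bounds in FPKM, in the layout of a Cufflinks tracking table. Per the submitters' processing notes, FastQC, Trimmomatic, Bowtie2, STAR, Cufflinks and mm10 were used. Versions, roles, the level of the bounds and the treatment of multiply mapped reads are not given in the sources used here. The table's starts were raised by 1, since 14690 of them equal RefSeq starts minus 1. 1 gene with a failed status was left out.

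limma 3.58.1 (R 4.3.3) was run on log2(FPKM + 1) with lmFit and eBayes with a variance trend (group as the only term, 2 residual degrees of freedom), with Benjamini-Hochberg adjustment over 9741 genes. Fold changes on this scale understate those of low genes. Depth was read from the FPKM steps: with a tolerance of 0.02 reads, 70.9% of 10161 genes above 0 in every library gave whole reads, against 1.07% with wrong steps. Of the 10 members, 6 gave reads, and Ezh2, Suz12, Jarid2 and Mtf2 gave none. A recovered read number is the smallest that explains the steps, and its 95% interval covers counting error only. The members and gene lists were chosen with earlier results of these data known. Of other Polycomb genes, the text names up to 3 per list with the largest difference without overlap, the PCGF and CBX paralogs, and the 4 targets with the highest mean, of which some are not reported here. Variant PRC1 partners with PD above DMSO or under the filter were added after their values were seen. Alternatives changed the pseudocount, filter, normalization, genes tested, variance model, unit, block and libraries.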

Additional observations from a re-analysis of the deposited data

How the results depend on the processing

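In none of the 15 alternative settings did any of the 10 members pass, and the smallest adjusted p was 0.517 (limma, Eed without PD replicate 1). Jarid2, Mtf2, Ring1 and Rnf2 kept their direction in every setting that gave them a value. The sign of Ezh2 turned with quantile normalization (0.052). With 1 library left out, the sign turned for 5 members, whose differences ran from -0.023 (without PD replicate 2) to 0.63 for Eed, from -0.063 (without DMSO replicate 1) to 0.52 for Suz12, from -0.28 to 0.062 (without PD replicate 1) for Rbbp4, from -0.27 to 0.026 (without DMSO replicate 1, and 0.0081 without PD replicate 2) for Pcgf6 and from -0.61 to 0.012 (without PD replicate 1) for Cbx7; the cause was not tested. The members' median of -0.062 was 0.10 with voom on recovered reads, where only 6 members have reads, and ran from -0.041 to 0.037 with 1 library left out. The median of the other Polycomb genes ran from -0.15 without DMSO replicate 1 to 0.069 without DMSO replicate 2. The deviations of same-numbered libraries correlated at r = 0.099 across genes, which does not show that the numbers pair the libraries. With the replicate block the members' median stayed at -0.062 and 0 members passed. By the deposited bounds, 0 members had PD clear of DMSO, against 4 by the libraries themselves. Over all genes, 25 passed in the main setting, 0 among protein-coding genes alone, with voom, without DMSO replicate 1 and without DMSO replicate 2, and 47 without PD replicate 2. The same 6 settings gave 561, 609, 414, 344, 416 and 608 genes, in that order, with an unadjusted limma p under 0.05. A filter of 5 FPKM left out Ring1 and Cbx7, and these were thinnest in PD replicate 2, the shallowest library, at 3 recovered reads each.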
